A study of Zea mays with 144 samples.

Results

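The step from the mixed dyad/tetrad stage to the tetrad stage was measured in maize anthers as 4 tetrad pools against 4 dyad/tetrad pools, out of 24 RNA pools in all. The 8 pools were chosen by their labelled stage: D/T1u, D/T2u, D/T1L and D/T2L against T1u, T2u, T1L and T2L, where u and L stand for the upper and the lower floret of a spikelet and the number for the set. All pools came from the inbred line Ky21, and the labels used here name no treatment and no plant age. A pool held RNA of 1 to 4 individuals with 8 to 20 whole anthers taken per tassel. The RNA was amplified before it was labelled with Cy3 or Cy5. The stage of a pool was set under the light microscope, and the dyad/tetrad pools were labelled as mixed, so that they already held some anther material at the tetrad stage. The labels do not say whether the upper and lower pools of a stage came from the same plants.

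In male meiosis the first division gives a dyad of cells and the second a tetrad of haploid cells. In maize the tetrad is held inside a wall of callose until an enzyme from the surrounding tapetum dissolves it and frees the microspores. The tapetum is the innermost layer of the anther wall and feeds the developing spores. Whole anthers hold meiotic cells, tapetum and the outer wall layers together. In such samples, fewer cells of a type and less RNA per cell cannot be told apart.

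Each pool was hybridised on 4 spotted cDNA slides with another pool of its set, and 12160 features were read. Pool values are on the log2 scale, with the average of all 12 pools in a set as 0, and a step as the tetrad minus the dyad/tetrad value on the log2 scale. Of the 48 slides, 4 held both stages of this step directly, 1 per floret and set. The labels do not state the numerator of the ratio. With stage slides read as Cy5 over Cy3, the 4 features of meiosis genes had a median difference between the last and the first stage of -1.04 in upper and -0.91 in lower florets. All 4 were lower at the last stage in upper florets and 3 of the 4 in lower florets. No such share was taken over all features, and the meiosis gene afd1 was not lower throughout. In the mean of 2 pools afd1 stood at 0.545 (upper) and 0.72 (lower) in mid-microspores, against 0.679 and 0.715 in meiocytes. On this basis the direction is likely but not settled, and the opposite reading exchanges every higher and lower. No sequence of the features is used here.

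Between the dyad/tetrad and the tetrad stage, 90 of 12160 features passed the test (0.740% of all features, limma with Benjamini-Hochberg adjusted p under 0.05), 76 higher (0.625%) and 14 lower (0.115%) at the tetrad stage. An unadjusted p under 0.05 was met by 1424 features (11.7%). The features that rose had a median step of 1.17, a 2.25-fold difference, and reached 3.78. Those that fell had a median step of -0.77 and reached -2.11. Over all features the median step was -0.02. The pool values of the stages did not overlap for 65 of the 90 features, against 5.19% of all features, and these values are the ones that chose the 90. The called features stood for 54 genes, 8 features had a gene name, and 34 had no gene in the annotation.

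The size of this count changed with several choices. One was to take the upper and lower pools of a stage as separate samples. They share 2 floret slides, and their values kept a correlation of 0.22 within stage and set after the fit. With stage and set as a random block, 38 features passed, all among the 90. With the florets averaged before the fit, 9 passed. With the 8 pools alone, still as separate samples but without the spread of the other 16, 1 passed, and with the 4 direct slides alone 0 passed, while 982 had an unadjusted p under 0.05. Scaling each scan to the same spread gave 293 calls, 187 higher and 106 lower. Without the upper dyad/tetrad pool of set 2, the lower dyad/tetrad pool of set 1 or the lower tetrad pool of set 2, 23, 21 and 28 passed, and without the upper tetrad pools 41 (set 1) and 35 (set 2) passed. Without the lower dyad/tetrad pool of set 2, 44 passed.

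**Figure D1:**
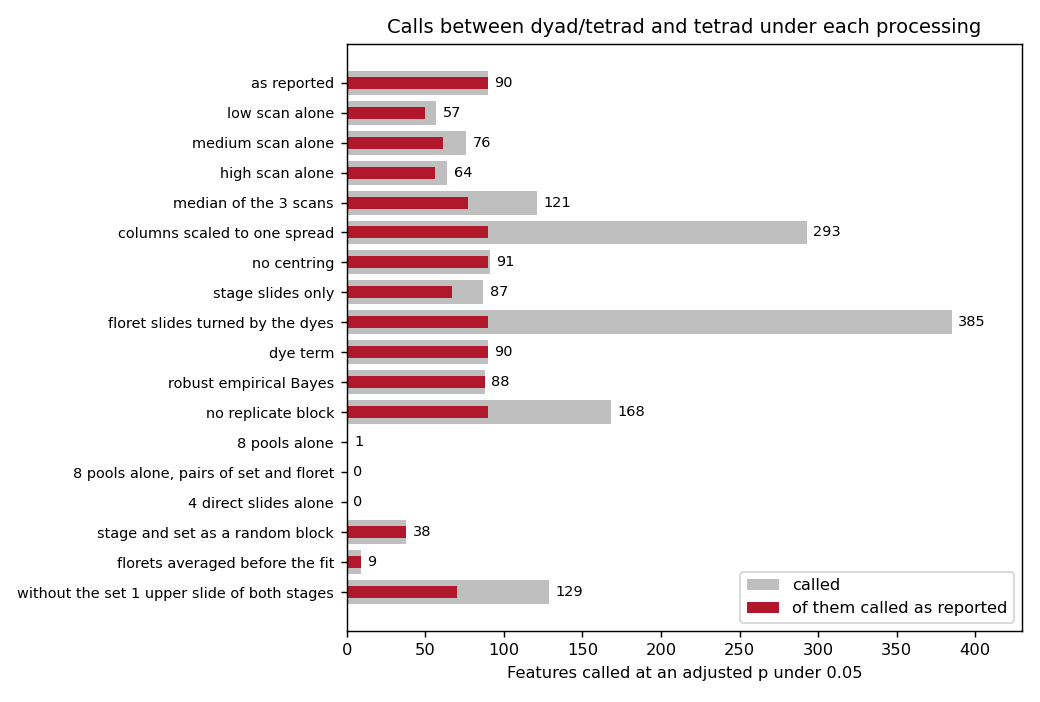
Number of features called between dyad/tetrad and tetrad over both florets (x axis, features at an adjusted p under 0.05) for the reported processing and each alternative (y axis). Grey bars give all calls and red bars those among the 90 reported, and the bars reach from 0 with the 4 direct slides alone to 385 with the floret slides turned by the dyes.

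The 9 features that passed with the florets averaged all rose, with steps between 1.23 and 1.91. They also passed with the random block and with each of the 8 pools left out in turn. The stages did not overlap in any of them, against 5.19% of all features. The 9 were singled out after their values were seen. They were chosen by a fit of the same slides that made fewer calls than those fits. These further passes and the lack of overlap were therefore largely given by the choice. Of the 9, 2 had a gene in the annotation and 7 had none. LOC100191584, a gene with no name in the tables used, stood at 0.57 in D/T1u, -0.27 in D/T2u, -1.09 in D/T1L and -0.99 in D/T2L. At the tetrad stage the same feature stood at 1.55 in T1u, 0.89 in T2u, 1.41 in T1L and 2.01 in T2L. Every tetrad pool was above every dyad/tetrad pool, and among the dyad/tetrad pools both upper ones were above both lower ones. The step was 1.91 ± 0.21 (SE, n = 4 pools a stage), a 3.75-fold rise (limma, adjusted p = 0.00065). On the direct lower slide of set 2, the low scan gave 5.545 for LOC100191584 and the others 2.15 and 1.98. With the median of the scans its step was 1.59 (limma, adjusted p = 0.000398).

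The second of them, LOC100281365, was at 1.07 in D/T1u, 0.38 in D/T2u, -0.59 in D/T1L and -0.59 in D/T2L. The tetrad values of LOC100281365 were 2.23 in T1u, 1.52 in T2u, 1.53 in T1L and 2.21 in T2L. Again all tetrad pools lay above all dyad/tetrad pools and the lower dyad/tetrad pools were lowest. The step was 1.81 ± 0.22 (SE, n = 4 pools a stage; limma, adjusted p = 0.00144).

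Of the called features with a gene name, 6 rose: Atg8b, Atg8d, VAP27-2, tip1, sbp27 and AN13. Autophagy is the pathway by which cells enclose part of their content in a double membrane and deliver it to the vacuole. Atg8 proteins are small ubiquitin-like proteins that are joined to a lipid of that membrane. For Atg8b (feature 3744) the dyad/tetrad pools stood at 0.51 in D/T1u, -0.39 in D/T2u, -0.90 in D/T1L and -1.31 in D/T2L. The tetrad pools of Atg8b stood at 1.08 in T1u, 1.00 in T2u, 0.02 in T1L and 0.89 in T2L. The stages overlapped, since D/T1u was above T1L, but within each set and floret the tetrad pool was higher. Atg8b rose by 1.27 ± 0.23 (SE, n = 4 pools a stage; limma, adjusted p = 0.0223), a 2.41-fold rise. On the direct lower slide of set 2, the low scan gave 4.79 for Atg8b and the others 1.36 and 1.26. With the median of the scans the step of Atg8b was 1.00 (limma, adjusted p = 0.0125).

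Atg8d (feature 3512) was at -0.31 in D/T1u, -0.26 in D/T2u, -1.12 in D/T1L and -0.88 in D/T2L. Its tetrad values were 0.53 in T1u, 0.49 in T2u, -0.27 in T1L and 0.03 in T2L. In each stage the upper pools of Atg8d were above the lower ones, and in each set and floret the tetrad pool was above its dyad/tetrad pool. Atg8d rose by 0.84 ± 0.13 (SE, n = 4; limma, adjusted p = 0.00765). On the direct upper slide of set 1, the high scan gave 4.81 for Atg8d and the low and medium scans gave 0.00. With the median of the scans the step of Atg8d was 0.47 (limma, adjusted p = 0.264). The other feature of Atg8d (10613) gave 0.67 ± 0.19 and did not pass (limma, adjusted p = 0.147).

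The other autophagy features on the array were looked up after these values were seen. In all, 7 features of 5 ATG genes were present, their steps lay between 0.03 and 1.27 with a median of 0.33, and 2 passed, against 0.740% of all features. The family was looked up because these 2 had passed, so nothing is read from that count. Atg8a had a step of 0.33 ± 0.17, and Atg8e had steps of 0.30 and 0.07 in its 2 features. Atg12, the ubiquitin-like protein of the other conjugation system of the pathway, had a step of 0.03 ± 0.17. None of these 4 features passed.

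VAP27-2 belongs to a family of endoplasmic reticulum membrane proteins that tether this membrane to others. Its dyad/tetrad pools stood at 0.39 in D/T1u, -0.25 in D/T2u, -0.67 in D/T1L and -0.76 in D/T2L. The tetrad pools of VAP27-2 stood at 0.74 in T1u, 0.84 in T2u, 0.38 in T1L and 0.35 in T2L. Only D/T1u reached into the range of the tetrad pools. VAP27-2 rose by 0.90 ± 0.16 (SE, n = 4; limma, adjusted p = 0.0146), and the feature of the related gene VAP27 gave 0.43 ± 0.16 and did not pass.

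The gene tip1 (also TIP1-1) encodes an aquaporin of the vacuolar membrane, a channel for water. Feature 11195 of tip1 was at 0.66 in D/T1u, 0.83 in D/T2u, -1.15 in D/T1L and -0.65 in D/T2L. At the tetrad stage tip1 was at 1.62 in T1u, 2.29 in T2u, 0.73 in T1L and 1.80 in T2L. The lower dyad/tetrad pools were below 0 and the upper ones above it, and D/T2u was above T1L. The step of this tip1 feature was 1.69 ± 0.29 (SE, n = 4; limma, adjusted p = 0.0146), a 3.23-fold rise. On the direct lower slide of set 2, its low scan gave 4.44 and the others 1.87 and 1.89. With the median of the scans its step was 1.38 (limma, adjusted p = 0.00325). The other 2 features of tip1 had steps of 0.25 and 0.15 and did not pass, so that the rise was not seen in all features of the gene.

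Over 25 aquaporin features of 13 gene names, looked up after the values were seen, the median step was 0.02 and the tip1 feature was the only one that passed, against 0.740% of all features. TIP1-2, another vacuolar aquaporin, had a step of -1.43 ± 0.35 (limma, adjusted p = 0.0775). The plasma membrane aquaporin PIP2-6 had a step of 0.46 ± 0.11 (limma, adjusted p = 0.065). Neither of these passed.

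The gene sbp27 encodes a transcription factor of the SBP family, named for the SQUAMOSA promoter binding domain. Feature 7533 of sbp27 was at 1.57 in D/T1u, 0.62 in D/T2u, -0.31 in D/T1L and -0.51 in D/T2L. The tetrad pools of sbp27 were at 2.50 in T1u, 2.29 in T2u, 1.70 in T1L and 2.12 in T2L. The stages did not overlap, and D/T1u came closest to the tetrad pools. The step was 1.81 ± 0.33 (SE, n = 4; limma, adjusted p = 0.0199). On the direct lower slide of set 2, the low scan gave 4.46 for this feature and the others 2.38 and 2.17. With the median of the scans its step was 1.48 (limma, adjusted p = 0.00472). The other feature of sbp27 (9659) had a step of -0.04 ± 0.32, so that the 2 features of the gene disagree. Other SBP genes stood near 0: sbp17 had a step of 0.03, ub3 one of 0.10, and sbp29 steps of 0.08 and 0.13.

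AN13 (also listed as znf1) differed by less than the genes above, but its pools were close together. The AN13 feature 1314 was at -0.37 in D/T1u, -0.72 in D/T2u, -0.41 in D/T1L and -0.41 in D/T2L. The tetrad pools of AN13 were at 0.00 in T1u, 0.11 in T2u, 0.16 in T1L and 0.30 in T2L. No dyad/tetrad pool reached a tetrad pool. AN13 rose by 0.62 ± 0.13 (SE, n = 4; limma, adjusted p = 0.0452). The other 2 AN13 features had steps of 0.35 and 0.47 and did not pass (limma, adjusted p = 0.166 and 0.169).

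**Figure D2:**
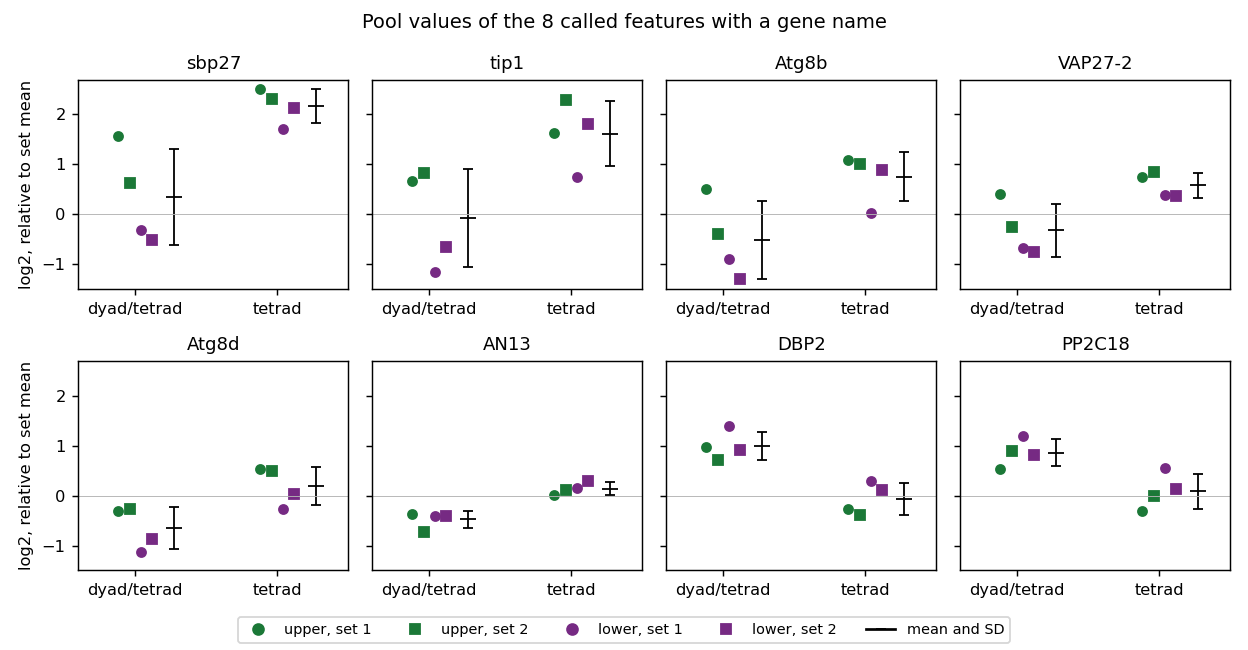
Pool values (y axis, log2 relative to the mean of the set) of the 8 called features with a gene name at the dyad/tetrad and the tetrad stage. Green points are upper and purple points lower florets, circles set 1 and squares set 2, and the black bar gives the mean and SD of 4 pools. In sbp27 and tip1 the lower dyad/tetrad pools lie below the upper ones, between -1.15 and -0.31.

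Of the genes with a name, 2 fell. PP2C18 encodes a protein phosphatase of type 2C, a class that removes phosphate from serine and threonine residues. It was at 0.53 in D/T1u, 0.89 in D/T2u, 1.19 in D/T1L and 0.81 in D/T2L. The tetrad pools of PP2C18 were at -0.31 in T1u, -0.01 in T2u, 0.54 in T1L and 0.13 in T2L. Only T1L reached the dyad/tetrad range, just above D/T1u. PP2C18 fell by 0.77 on the log2 scale (SE 0.15, n = 4; limma, adjusted p = 0.0265), and the scans of the direct slides differed little, between -1.24 and -0.58. Of 7 PP2C features, looked up after the values were seen, the median step was -0.35 and PP2C18 alone passed, against 0.115% of all features that were called lower. PP2C24 had a step of -0.76 ± 0.19 (limma, adjusted p = 0.0801).

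DBP2 was at 0.98 in D/T1u, 0.72 in D/T2u, 1.38 in D/T1L and 0.92 in D/T2L. The tetrad pools of DBP2 were at -0.27 in T1u, -0.39 in T2u, 0.29 in T1L and 0.12 in T2L. The stages did not overlap. DBP2 fell by 1.06 on the log2 scale (SE 0.16, n = 4; limma, adjusted p = 0.00805). The low scans of 3 direct slides gave -3.30, -3.63 and -2.08 for DBP2, while their medium and high scans lay between -0.89 and -0.52. The 3 scans of the direct lower slide of set 2 showed no fall, at -0.03, 0.19 and -0.00, while the step fitted from all slides there was -0.80. With the median of the scans the step of DBP2 was -0.48 (limma, adjusted p = 0.114).

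None of these 8 named features passed with the florets averaged (limma, adjusted p between 0.133 and 0.225). With the random block, tip1, Atg8d and DBP2 passed, and VAP27-2, Atg8b, sbp27, PP2C18 and AN13 did not (limma, adjusted p between 0.0505 and 0.124). With each of the 8 pools left out in turn, DBP2 passed in 6 of 8 fits and Atg8d and tip1 in 4. PP2C18 and VAP27-2 passed in 3, sbp27 and Atg8b in 2 and AN13 in 1. The steps of all 8 named features kept their sign in these fits. The naming rule asked for the same sign in every set and floret, so the kept sign was largely given by the choice.

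The largest steps belonged to genes without a name, and they were picked after their values were seen. LOC100285067 was between -1.72 and -0.59 in the dyad/tetrad pools and between 2.13 and 2.73 in the tetrad pools. The step of LOC100285067 was 3.47 ± 0.42 (SE, n = 4; limma, adjusted p = 0.00144), an 11.1-fold rise, and it passed in 7 of the 8 fits with a pool left out. The size of this step moved with the scans: on the direct upper slide of set 2 the low scan gave 9.33 and the others 1.57 and 1.75, and with the median of the scans the step of LOC100285067 was 2.59 (limma, adjusted p = 0.00472). LOC100273046 stood at 1.52 in D/T1u, 1.35 in D/T2u, -0.72 in D/T1L and -0.73 in D/T2L, and between 3.06 and 3.93 in the tetrad pools. Its upper dyad/tetrad pools were thus between its lower ones and the tetrad pools. The step of LOC100273046 was 2.98 ± 0.41 (SE, n = 4; limma, adjusted p = 0.0038).

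In LOC100383815 the pool D/T1u was at 0.99 and the other 3 dyad/tetrad pools between -1.35 and -1.28, while the tetrad pools were between 2.27 and 2.82. The step of LOC100383815 was 3.32 ± 0.64 (SE, n = 4; limma, adjusted p = 0.0265), and it passed in 1 of the 8 fits with a pool left out. For LOC100282430 the step was 3.78 ± 0.72 (SE, n = 4; limma, adjusted p = 0.0265), but it ranged from 0.29 in the upper florets of set 1 to 5.98 in those of set 2, and it passed in 4 of the 8 fits. The other 2 features of LOC100282430 had steps of -0.31 and -0.49, so that its features disagree in sign. The largest fall was that of LOC100286267, -2.11 ± 0.43 (limma, adjusted p = 0.0372), whose low scans of the direct slides were at or near 0 while the medium and high scans of the upper slide of set 2 gave -7.33 and -7.70. With a pool left out the step of LOC100286267 ran from -2.84 to -1.20 and passed in 0 of 8 fits (limma, highest adjusted p = 0.479), and it did not pass with the random block (adjusted p = 0.061). The next, LOC100282870, fell by 1.44 (SE 0.24; limma, adjusted p = 0.0137), with low scans at or near 0 as well. With the median of the scans the step of LOC100282870 was -1.03 and did not pass (limma, adjusted p = 0.065), and it passed in 3 of 8 fits with a pool left out.

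Some genes were read by more than 1 feature. For 20 of the called features, the gene had at least 1 other feature on the array, 25 features in all. Of these, 21 did not pass, and 16 of the 21 had a step of the same sign as the called feature. The rest of the 25 were the called features of LOC100274345 and LOC100193694, which count among the 20 as well. No share of equal signs was taken over all features, so nothing is read from these counts. LOC100274345 passed with both of its features, at 0.78 and 0.89. LOC100193694 passed with 2 features, at 1.17 and 0.85, and its other features had steps of 1.34 and -0.00.

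In the upper florets alone, with 2 pools a stage, 0 features passed (0.00% of all features; limma, smallest adjusted p = 0.357), and 576 (4.74%) had an unadjusted p under 0.05. In the lower florets 42 passed (0.345%), 41 higher (0.337%) and 1 lower (0.00822%) at the tetrad stage, and 40 of them were among the 90. Without the lower tetrad pool of set 2 the count in lower florets was 3. No feature passed the test of the difference between the florets (0.00%; limma, smallest adjusted p = 1), while 129 had an unadjusted p under 0.05. The calls in lower and not in upper florets therefore do not show, feature by feature, that the step differed between florets.

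Over the 76 features that rose, the median step was 0.86 in upper and 1.54 in lower florets. The step was larger in lower florets for 74 of the 76, for 72 within set 1 and for 65 within set 2. Over all features the absolute step was larger in lower florets for 56.3%, for 6889 of 12160 within set 1 and for 7382 within set 2. An unadjusted p under 0.05 for the difference between the florets was met by 22 of the 76 (28.9%), against 1.06% of all features. The 76 were chosen in these same pools with the same estimate of spread. That choice can by itself raise the share, so nothing is read from it. In LOC100191584 the step was 1.07 in upper and 2.75 in lower florets, a difference of -1.68 ± 0.42 (limma, unadjusted p = 0.00127).

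**Figure D3:**
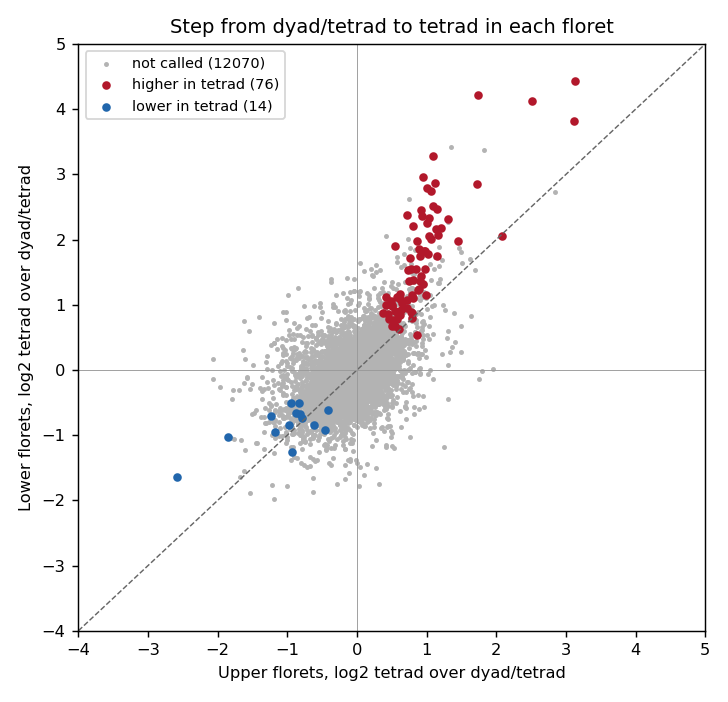
Step from dyad/tetrad to tetrad in upper florets (x axis, log2) against lower florets (y axis, log2) for 12160 features. Grey points did not pass, red points are the 76 features that rose and blue points the 14 that fell, and the dashed line marks equal steps. Of the red points, 74 lie above the line.

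Of the 6 stages, the dyad/tetrad stage had the largest median difference between the florets over these 76 features. Among the 76, 61 features (80.3%) were higher in the upper than in the lower dyad/tetrad pool in both sets, and 0 were lower in both sets. Over all features the share higher in both sets was 31.5%, and 3655 of 12160 were lower in both sets. The median difference of upper minus lower pools at the dyad/tetrad stage was 0.92 in set 1 and 0.51 in set 2. At the tetrad stage the median difference was 0.23 in set 1 and -0.14 in set 2. There 25 of the 76 (32.9%) were higher in upper pools in both sets, near the 29.7% of all features. At the meiocyte stage the median difference was 0.08 in set 1 and -0.00 in set 2. These counts were taken after the features had been chosen on their steps, and no test was made over the 76.

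Along all 6 stages, the median level of the 76 was low at the meiocyte stage, between -0.83 and -0.71 over the pools of both florets and sets. At the dyad/tetrad stage the lower pools stood at -0.66 and -0.65 and the upper pools at 0.31 and -0.17. At the tetrad stage the medians lay between 0.68 and 1.00, and at the early microspore stage between 0.66 and 0.98. They were lower again in mid-microspore pools, between -0.53 and -0.21. The 14 features that fell had medians between 0.42 and 0.75 in meiocyte and dyad/tetrad pools, between -0.41 and -0.09 in tetrad pools, and between -0.73 and -0.41 in early microspore pools.

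**Figure D4:**
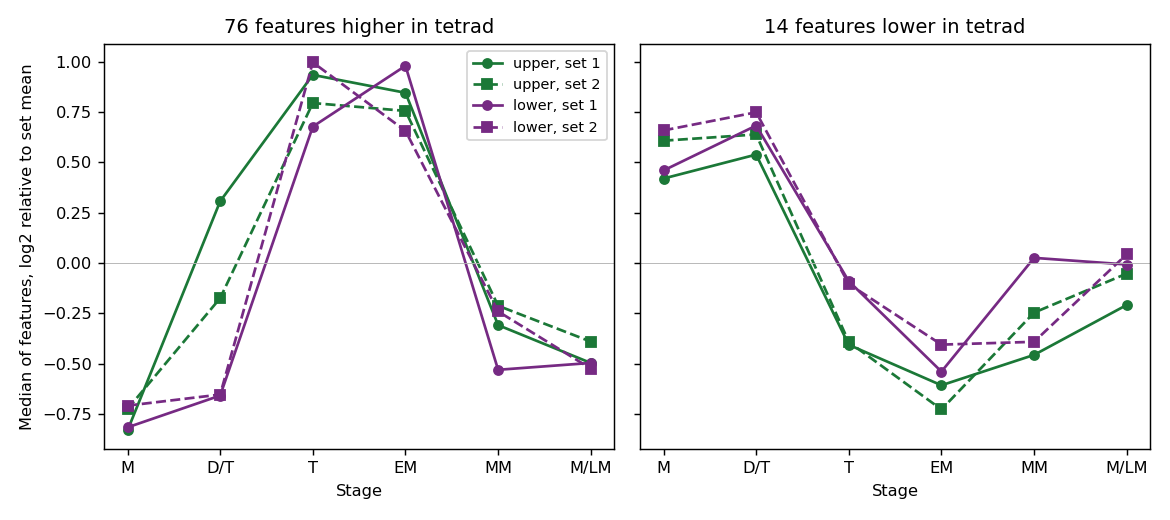
Median level (y axis, log2 relative to the mean of the set) of the 76 features that rose and the 14 that fell at 6 stages: meiocyte (M), dyad/tetrad (D/T), tetrad (T), early microspore (EM), mid-microspore (MM) and mid/late microspore (M/LM). Lines stand for upper (green) and lower (purple) florets of set 1 (circles) and set 2 (squares); the upper dyad/tetrad medians of 0.31 and -0.17 lie between the lower ones and the tetrad values.

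The neighbouring steps share pools with this one, so their values are set side by side and not counted together. From meiocyte to dyad/tetrad, 19 features passed (0.156%), and from tetrad to early microspore 2121 passed (17.4%). Atg8b had steps of 0.50 before, 1.27 at and 0.83 after this step. Atg8d had steps of 0.06, 0.84 and 0.62 in the same order. VAP27-2 had steps of 0.28, 0.90 and 0.99, and AN13 steps of 0.27, 0.62 and 0.81. These 4 genes thus rose again from tetrad to early microspore (limma, adjusted p = 0.0248, 0.00452, 0.000935 and 0.00107).

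The step of tip1 was 1.11 before and -0.98 after (limma, adjusted p = 0.0316 for the latter), and in the mean of 2 pools tip1 was highest at the tetrad stage in both florets. Its single pools overlapped, with T1L at 0.73 below EM1L at 1.29. For sbp27 the steps were 1.11 before and -0.02 after, and its level stayed near 2 in early microspore pools (2.22 in upper and 2.04 in lower florets) before it stood at -1.68 and -1.70 in mid-microspore pools. LOC100273046 had steps of 2.41 before and -1.95 after this one (limma, adjusted p = 0.0464 and 0.00565). PP2C18 had steps of -0.41 before and -0.85 after, and DBP2 of 0.33 and -0.70. Both of these genes fell further from tetrad to early microspore (limma, adjusted p = 0.0017 and 0.00963).

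**Figure D5:**
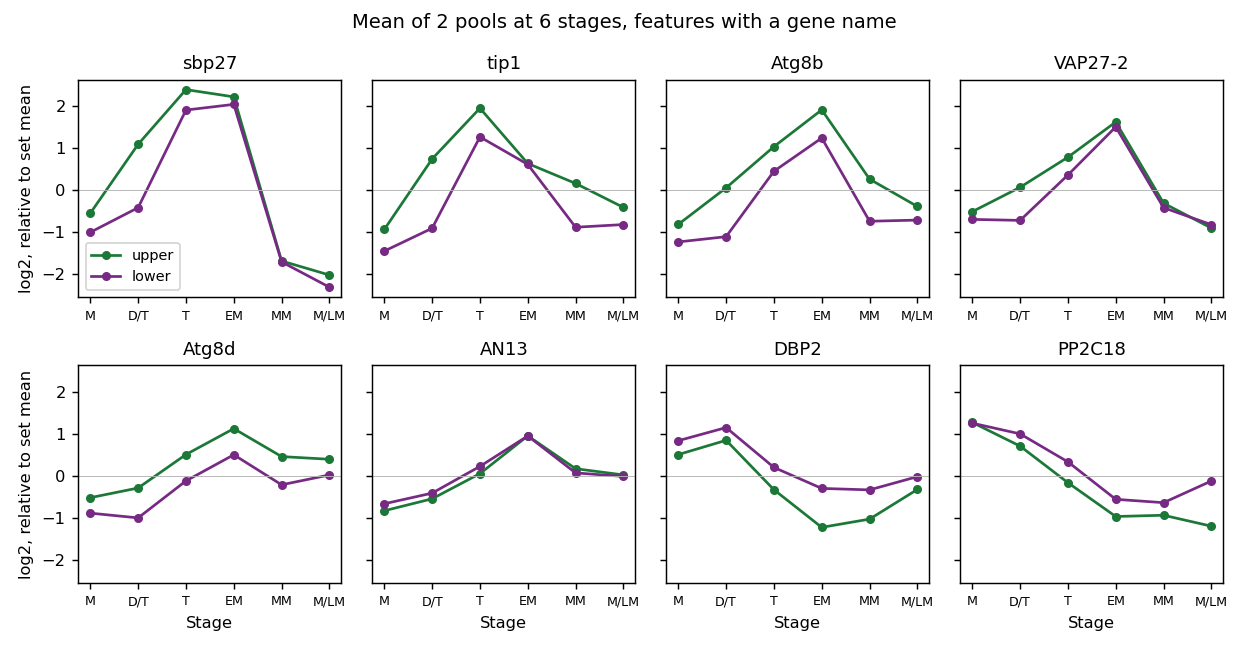
Mean of 2 pools (y axis, log2 relative to the mean of the set) at 6 stages (x axis, from meiocyte, M, to mid/late microspore, M/LM) for the 8 called features with a gene name, in upper (green) and lower (purple) florets. Atg8b, Atg8d, VAP27-2 and AN13 are highest at the early microspore stage (EM), while the means of tip1 are highest at the tetrad stage (T), at 1.95 and 1.27.

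The dyad/tetrad pools were also set against the mean of the meiocyte and tetrad pools, which asks whether a mixed stage lies off the midpoint of its neighbours. A level between the neighbours but nearer to either also differs from that mean. The contrast therefore cannot decide whether the mixed stage lies between its neighbours. No feature passed (0.00%; limma, smallest adjusted p = 0.303), and 612 (5.03%) had an unadjusted p under 0.05.

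The 23 gene lists drawn up for anther tissue were matched to features by gene symbol and synonym alone. Of them, 20 had a matching feature, 210 features in all, and 0 of the 210 passed, against 0.740% of all features. The called sbp27 feature, of a transcription factor gene, was in no list, so the lists do not cover all genes of their kind. The list medians lay between -0.15 and 0.20 for the 17 lists of 4 or more features. The meiosis list had 4 features with steps from -0.44 to 0.63 and a median of 0.20. The cohesin gene afd1 had a step of 0.19 ± 0.14, and its level had fallen by 1.19 from meiocyte to dyad/tetrad (limma, adjusted p = 0.00136). ZYP1, a protein of the synaptonemal complex, had a step of 0.21 ± 0.39. None of the 4 passed between dyad/tetrad and tetrad.

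The list for callose had no feature with a matching gene name, and the list for tapetum and pollen wall had 1. It was ms23, a transcription factor needed for the tapetum, which was between -0.93 and -0.16 in dyad/tetrad pools and between -0.73 and 0.07 in tetrad pools. The step of ms23 was 0.07 ± 0.17 (limma, adjusted p = 0.947). With 1 marker, the share of tapetum in the pools was not tested. The 2 features of kernel storage genes, from an organ that was not sampled, had steps of -0.30 and -0.12.

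Some list members came close to the threshold without passing, and are named by their values after these were seen. An actin feature (3790) was between 0.07 and 0.35 in dyad/tetrad pools and between -0.34 and -0.20 in tetrad pools, with no overlap, and its step was -0.44 ± 0.10 (limma, adjusted p = 0.0571). The other feature named actin had a step of -0.22. The tubulin gene tua3 had 5 features with steps between -0.03 and 0.56, of which the smallest adjusted p was 0.0751 (limma). The jasmonate signalling gene TIFY23 had a step of -0.67 ± 0.16 (limma, adjusted p = 0.0775). It does not stand for its list, whose 18 features ran in both directions, from -0.81 to 0.62, with a median of 0.02. Of the catalases, enzymes that break down hydrogen peroxide, catalase1 had a step of 0.46 ± 0.12 and CAT3 one of -0.71 ± 0.19 (limma, adjusted p = 0.0921 and 0.0983).

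The slides set a limit on these values. Across features, which are not independent, the direct slides of the 2 sets had a Pearson r of 0.03 in upper and -0.00 in lower florets, and the pool differences fitted from all slides 0.11 and 0.07. With the florets averaged, the steps of the 2 sets had an r of 0.25. Between upper and lower florets the fitted differences had r of 0.24 within set 1 and 0.39 within set 2, where they share floret slides. Between upper florets of one set and lower florets of the other, r was 0.23 and 0.27. The 3 scans of the direct upper slide of set 1 had the lowest mean r of all 48 slides, 0.122, against 0.273 to 0.448 for the other 3 direct slides. Without that slide 129 features passed, 70 of them among the 90.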

How the data were processed

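The deposited values are natural log ratios of the 2 channels, 1 per feature and scan, with medians near 0 (-0.0253 to 0.0327). The labels do not give their base. It was taken from repeated values in 47 low scans, whose distances met the natural log in 63 cases, log2 in 0 and log10 in 5. The sources used here do not name the authors' software for these values. Channel intensities were not used here, and the SE over pools stands for the precision.

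Scans were divided by the natural log of 2, centred on their median and averaged per slide. Stage slides were read as Cy5 over Cy3 and floret slides as upper over lower, as deposited. Read so, the step in upper minus lower florets on the direct slides and the same quantity from the floret slides had r of 0.27 (set 1) and 0.48 (set 2) across features, against -0.05 and -0.00 with the floret slides turned by the dyes. Least squares gave the pool values per set (MASS 7.3.60.0.1, R 4.3.3). All 24 pools entered a limma 3.58.1 model with 12 stage-by-floret groups and the set as a block, which left 11 residual degrees of freedom. The set number pairs the pools, since the labels never put pools of different sets on the same slide. On simulated data for the step over both florets (12160 features), 69 of 100 changes of 1 on the log2 scale were recovered. Of changes of 2, 96 of 100 were recovered, and 8 unchanged features were called. The simulated noise was independent between pools, whereas upper and lower pools of a stage and set had a correlation of 0.22 in the data. The simulation therefore does not give the rate of false calls in the data. The labels call the pools biological replicates of randomly pooled individuals. The p-values rest on a spread between pools that is taken over all 12 groups and moderated across features. They do not rest on the pools of this step alone, and they take upper and lower pools as separate samples.

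The platform annotation and RefSeq gave 1 gene for 6412 features, several for 214 and none for 5534, and 1137 features had a gene name. The rule names up to 12 features per direction that were called, carried a gene name and kept their sign in every set and floret. It adds the 3 smallest p-values of the floret difference where none passed. Some single members of the lists are not reported here. The pools, lists and rules were chosen with earlier results of these data known. Python 3.11.15 and matplotlib 3.10.9 drew the figures.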

Additional observations from a re-analysis of the deposited data

Results flagged for a closer look

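In 23 features examined at each stage (46 groups of 4 pools), 3 pools stood apart from the other 3 of their group by Dixon's test; about 5% of groups are marked so by chance. AN13 (feature 1314) was at -0.719 in D/T2u, with the other dyad/tetrad pools between -0.413 and -0.369. LOC100383815 (feature 7527) was at 0.994 in D/T1u, with the others between -1.35 and -1.28. LOC100274345 (feature 8864) was at 0.927 in T2L, with the other tetrad pools between 0.268 and 0.328.

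The smallest unadjusted p-values for a difference between the florets among features with a gene name belonged to PHYC, pBrp and ec2e, and none passed after adjustment (limma, adjusted p = 1). The phytochrome gene PHYC had steps of -0.48 and -0.28 in the upper florets of set 1 and 2 and of 1.47 and 1.32 in the lower ones, a difference of -1.77 ± 0.67 (limma, unadjusted p = 0.0199). Single scans of PHYC on the direct slides ran from -4.74 to 6.54. The gene pBrp, of a TFIIB-related protein of plants, had steps of -0.01 and -0.59 in upper and of 0.14 and 1.01 in lower florets, a difference of -0.88 ± 0.34 (limma, unadjusted p = 0.0207). In both genes every upper step was below 0 and every lower step above it. For ec2e the difference was -0.99 ± 0.39 (limma, unadjusted p = 0.0237).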

How the results depend on the processing

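Over both florets the 90 calls became 57 with the low scan alone, 293 with columns scaled to the same spread, 385 (247 higher, 138 lower) with the floret slides turned by the dyes, 1 with the 8 pools alone, 0 with these 8 in pairs of set and floret, and 0 with the 4 direct slides alone. With alternatives chosen after seeing the data, they became 38 with stage and set as a random block and 9 with the florets averaged. Leaving out 1 pool gave 21 to 132. Without the set as a replicate block, 168 passed over both florets and 64 in lower florets; pool values are relative to the set's mean, so that this fit gains a residual degree of freedom. The 42 calls in lower florets became 27, 80 and 83 with the low scan, scaled columns and turned floret slides, and 3 to 38 with a pool left out. The 0 calls in upper florets became 2 and 9 with scaled columns and turned floret slides and 0 to 1 with a pool left out, the difference between florets 0 to 1 with a pool left out, and the comparison of dyad/tetrad with the mean of its neighbours 10 (scaled), 4 (turned), 1 (stage slides only) and 0 to 1 (a pool left out). The 20 single features described over both florets kept their direction in all 500 values under other settings and passed in 288. These features were chosen as called, with the same sign in every set and floret, and the settings reuse the same slides. A kept direction was therefore largely given by the choice. The steps of LOC100286267 and LOC100282870 came as near to 0 as -0.005. The floret difference of PHYC turned to 0.25 with the floret slides turned by the dyes, and that of pBrp to 0.001 with the high scan alone; the cause was not tested.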
